A study of Mus musculus with 8 samples.

Results

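DSB-seq of mouse embryonic stem (ES) cells lacking the chromatin remodeler Chd1 gave 5671 peaks of DNA double-strand breaks, and 141 of them (2.49%, Wilson 95% interval 2.11% to 2.92%) are described here: peaks far from promoters that sat on runs of G and C without a CA repeat, an alternating C-G stretch or a G-quadruplex motif. They were chosen by sequence and position alone. The summit lay more than 1 kb from every annotated transcription start site (TSS) and in no coding exon, which 1892 peaks met, and the interval held a run of G and C, uninterrupted by A or T, of 12 bp or more. Peaks were left out when the interval held a perfect CA (or TG) repeat of 20 bp or more, an alternating C-G stretch of 12 bp or more, or a G-quadruplex motif, that is 4 runs of 3 or more G (or C) with gaps of 1 to 7 bases. The members made up 7.45% of the 1892 distal peaks (6.35% to 8.72%). Of the other distal peaks, taking the first pattern that applied, 501 held a CA repeat, 80 an alternating C-G stretch and 1069 a G-quadruplex motif, and 101 had no run of G and C of that length.

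The Chd1 KO cells had the genotype Chd1delta/delta, an established line, and the control cells, labeled Chd1 WT, were Chd1fl/delta, with 1 conditional and 1 deleted allele. Both were grown in serum with LIF. Each genotype had 2 DSB-seq replicates, which the authors combined before calling 1 list of peaks per genotype, so no value below has a replicate error. All intervals cover counting error only. In DSB-seq, broken DNA ends in fixed nuclei are labeled with biotin by terminal transferase, captured and sequenced. The lowest local background in each list corresponds to about 29800000 reads in Chd1 KO and 27600000 in control, so both lists rest on a like depth, with 54 peaks called in control.

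Remodelers such as Chd1 use ATP to slide and space the nucleosomes that DNA is wrapped around. GC-rich DNA can leave the ordinary double helix in several ways. Tracts of 4 G runs can fold into quadruplexes, alternating purines and pyrimidines can adopt the left-handed Z form, and triplet repeats of CGG on one strand and CCG on the other can fold into hairpins. Such CGG/CCG repeats are known for their instability at human FMR1, where their expansion causes fragile X syndrome. In mammals CG dinucleotides are rare, except in CpG islands, which are GC-rich stretches that mostly mark promoters.

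The members with the highest fold enrichment and those with the longest runs were read from the mm9 genome, because their sequences show what is left once those 3 patterns are set aside. Among the 10 members of highest fold enrichment 5 had a CGG/CCG repeat, which is a perfect repeat of period 3 and at least 12 bp inside the run. So did 3 of the 5 members with the longest runs. Those with such a repeat follow, on the plus strand with 20 bp on either side, the run in capitals, except for the member upstream of Grxcr2:
Ccdc88b, chr19:6936430-6936502: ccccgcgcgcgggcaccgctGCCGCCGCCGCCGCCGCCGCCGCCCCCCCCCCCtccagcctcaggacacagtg
4930505N22Rik, chr19:46086264-46086334: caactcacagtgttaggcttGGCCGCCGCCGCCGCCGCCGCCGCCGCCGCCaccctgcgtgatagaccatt
Cacna1g, chr11:94298106-94298172: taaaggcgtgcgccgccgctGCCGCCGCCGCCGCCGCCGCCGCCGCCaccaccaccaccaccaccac
Gm9972, chr11:42820589-42820643: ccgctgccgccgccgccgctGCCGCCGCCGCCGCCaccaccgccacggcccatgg
Ankrd44, chr1:54865122-54865196: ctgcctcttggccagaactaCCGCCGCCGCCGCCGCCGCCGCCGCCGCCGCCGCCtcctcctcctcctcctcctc
Gm16629, chr15:92183099-92183180: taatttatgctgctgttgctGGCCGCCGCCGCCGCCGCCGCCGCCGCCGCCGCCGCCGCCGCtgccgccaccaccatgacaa
1700022K14Rik, chr5:66134528-66134601: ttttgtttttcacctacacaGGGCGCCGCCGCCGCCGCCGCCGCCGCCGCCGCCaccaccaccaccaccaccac
Each of these 7 reads CCG on the plus strand, so the G-rich strand is the minus strand. In Ccdc88b the repeat runs into a stretch of 11 C, and in Cacna1g and 1700022K14Rik it runs into an ACC repeat, where A ends the run.

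Other members of high fold enrichment or long run had no perfect triplet repeat of 12 bp. Their runs, printed the same way, held stretches of 1 base in Tgfbr2 and Ggnbp1 (the latter shown as the next such member in fold enrichment), a C-rich run in U6, and G and C in mixed order in the rest:
Tgfbr2, chr9:116013514-116013578: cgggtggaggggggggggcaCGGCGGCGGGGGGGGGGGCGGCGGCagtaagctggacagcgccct
Ggnbp1, chr17:27151080-27151140: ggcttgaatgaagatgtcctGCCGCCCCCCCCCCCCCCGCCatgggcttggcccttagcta
1700121C08Rik, chr4:123519306-123519363: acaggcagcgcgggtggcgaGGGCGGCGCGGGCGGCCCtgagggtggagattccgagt
Poc5, chr13:97146846-97146899: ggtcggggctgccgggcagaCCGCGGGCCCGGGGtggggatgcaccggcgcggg
SNORA17, chr4:82733050-82733101: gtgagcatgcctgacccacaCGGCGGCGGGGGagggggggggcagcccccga
U6, chr1:174796425-174796479: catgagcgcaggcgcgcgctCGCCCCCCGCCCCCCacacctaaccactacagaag
The Tgfbr2 run held 11 G in a row and the Ggnbp1 run 14 C, while the longest stretch of 1 base in the U6 run was 6 C.

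A different setting is seen where a short run lies in DNA that is GC-rich all around. The members of highest fold enrichment with a run of at most 15 bp and over 70% GC around it are shown with 60 bp on either side, the run in capitals:
E530001K10Rik, chr2:94113487-94113621: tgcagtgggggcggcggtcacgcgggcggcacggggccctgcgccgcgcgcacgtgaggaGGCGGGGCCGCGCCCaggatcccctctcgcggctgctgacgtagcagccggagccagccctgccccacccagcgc
Gm10566, chr1:15276630-15276764: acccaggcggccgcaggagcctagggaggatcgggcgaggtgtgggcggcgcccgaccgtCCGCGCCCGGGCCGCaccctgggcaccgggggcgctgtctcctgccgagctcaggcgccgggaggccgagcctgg
Here the run is hardly set off from its surroundings, which had a GC content of 74.7% and 73.7% in the 300-bp window without the run.

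The strongest member lay 3.74 kb upstream of Ccdc88b, a gene of the Hook-related coiled-coil family, with 46 extended reads at the summit over a local background of 4.38 and a fold enrichment of 8.74. The member in an intron of 1700121C08Rik had 32 reads and a fold enrichment of 7.60. The member in 4930505N22Rik, a long noncoding RNA gene, had 37 reads and a fold enrichment of 7.42. The 3 stood above the rest, since the other 7 of the top 10 lay between 6.69 and 6.91. These were an intron of Tgfbr2, the type II receptor of TGF-beta, at 6.91, and a site 11.4 kb upstream of Poc5, a centriole protein gene, at 6.90. A site 17.6 kb upstream of Grxcr2, needed for the stereocilia of hair cells, stood at 6.86, and a site near a SNORA17 copy, a small nucleolar RNA, at 6.82. An intron of Cacna1g, a T-type calcium channel gene, stood at 6.80, and sites 22.7 kb from a U6 copy and 28.7 kb from Gm9972 both stood at 6.69. A site 51.9 kb upstream of Chd9, another gene of the Chd family, was equal to the last 2 at 6.69. The members with the longest runs were not the strongest. The 42-bp run in an intron of Gm16629 had a fold enrichment of 5.26, and the 37-bp run upstream of Pou4f3, a transcription factor gene of hair cells, 4.86. The 35-bp run in Ankrd44 reached 6.40 and the 34-bp run near 1700022K14Rik 5.62.

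As a group the members had a lower fold enrichment than the distal peaks on the named motifs. Their median fold enrichment was 4.34 (95% interval 4.27 to 4.54, n = 141, range 3.30 to 8.74), against 4.73 (4.63 to 4.78) with a G-quadruplex motif and 5.26 (5.24 to 5.50) with a CA repeat. The intervals do not overlap in either comparison. Distal peaks without a run of G and C had a median of 4.15 (3.95 to 4.51), whose interval overlaps that of the members. The median number of extended reads at the summit was 20 (20 to 21) in members and 21 over all Chd1 KO peaks. It was 21 (21 to 21) with a G-quadruplex motif, which meets the interval of the members, and 23 (22 to 24) with a CA repeat. The local background had a median of 3.74 (3.62 to 3.94) in members. With a G-quadruplex motif it was 3.62 (3.58 to 3.68), and with a CA repeat 3.36 (3.30 to 3.44). At the edge of the rule, 13 members with a run of exactly 12 bp had a median fold enrichment of 4.22, and 15 distal peaks with none of the patterns and a longest run of 10 or 11 bp had 4.44.

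**Figure D1:**
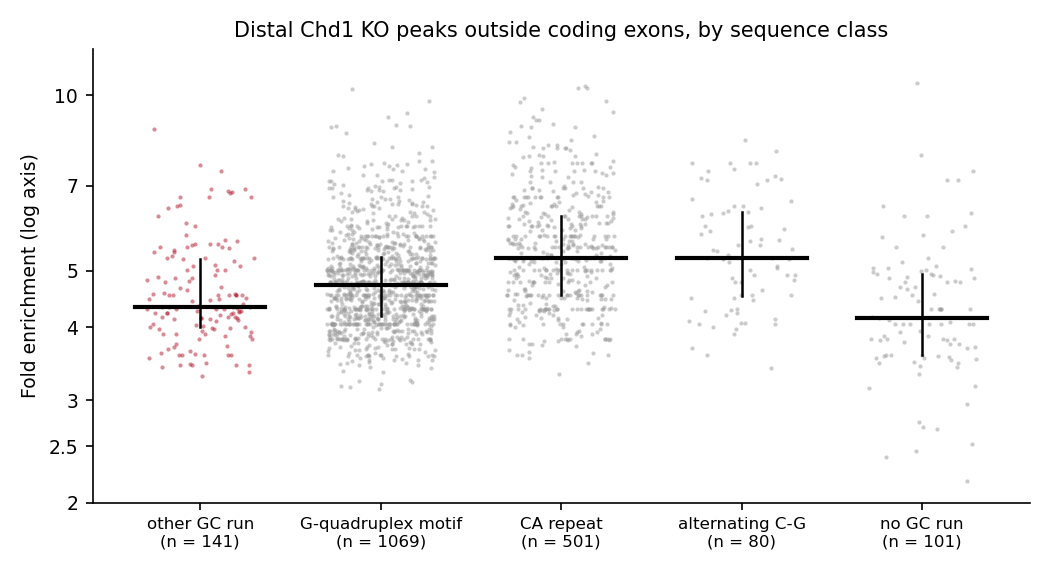
Fold enrichment (log axis) of each distal Chd1 KO peak outside coding exons, by sequence class; points are peaks, thick lines medians and thin lines the interquartile range. Members, in red, have a median of 4.34, below the 5.26 of peaks with a CA repeat and the 4.73 of peaks with a G-quadruplex motif.

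No member shared a base with a control peak. That is 0 of 141, which allows a share of up to 2.13% (3 counts of the total). Over all Chd1 KO peaks the share was 0.864% (49 of 5671), so a count of 0 is near this background. All 49 were distal, where the share was 2.59% (1.96% to 3.41%, 49 of 1892). Among distal peaks the shared ones were 23 of 501 with a CA repeat (4.59%, 3.08% to 6.79%) and 19 of 101 without a run (18.8%, 12.4% to 27.5%). Both of those intervals lie above the Wilson interval of the members, which ends at 2.65%. The share was 5 of 1069 with a G-quadruplex motif (0.468%, 0.200% to 1.09%), and 2 of 80 with an alternating C-G stretch (2.50%, 0.688% to 8.66%), whose intervals overlap that of the members. The weakest control peak had a −log10 p-value of 7.13, and 117 of the 141 members were at or above it. Signal below the peak threshold in control was not analyzed here.

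The runs themselves fell into 5 groups, each run being placed in the first that applied, in the order given below. A run with a CGG/CCG repeat could thus also hold a stretch of 1 base, as in Ccdc88b. The longest run of a member had a median length of 18 bp (17 to 20), between 12 and 42 bp. It held a median of 4 CG dinucleotides (4 to 5), and 139 of 141 runs held at least 1. This was not particular to members. At least 1 CG was held by 974 of 992 longest runs in the G-quadruplex class (98.2%, median 3 CG). It was held by 472 of 473 in the CA repeat class and all 80 in the alternating C-G class, each with a median of 9. A CGG/CCG repeat was present in 29 members (20.6%, 14.7% to 28%), a repeat of period 4 to 6 in 12, a stretch of at least 8 of the same base in 21 (14.9%), another run of at least 80% G or 80% C in 4, and G and C in mixed order in 75 (53.2%, 45.0% to 61.2%). Among the 992 distal peaks with a G-quadruplex motif that had such a run, the longest run was of the CGG/CCG kind in 9, of the mixed kind in 132 and held a stretch of 1 base in 506. That motif asks for G runs and so favors such stretches by its definition.

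Members with a CGG/CCG repeat had a higher fold enrichment than those with a mixed run. Their median fold enrichment was 5.09 (4.48 to 5.62, n = 29), above the 4.25 (4.11 to 4.35, n = 75) of members with a mixed run, and the intervals do not overlap. The median was 4.48 (4.13 to 5.27) with a stretch of 1 base, 4.26 (3.92 to 4.86) with a repeat of period 4 to 6 and 5.05 (3.95 to 6.69, n = 4) in other skewed runs, whose intervals overlap that of the CGG/CCG repeats. Members with a CGG/CCG repeat made up 9 of the 20 members of highest fold enrichment. The repeat was 12 to 41 bp long, with a median of 20 bp. The 12 members with at least 24 bp of repeat had a median fold enrichment of 6.01, the 7 with 18 to 23 bp had 4.33 and the 10 with less than 18 bp had 4.68, so the median did not rise step by step with the length of the repeat. Over the 29 members the Spearman correlation of repeat length with fold enrichment was 0.44 and the Pearson correlation 0.39, as a description of peaks from 1 combined library. Their summits lay a median of 29 bp from the middle of the run (16.5 to 60.5 bp). Of the 29, 11 were intronic and 18 intergenic. The whole run held more C than G on the plus strand in 20 and more G than C in 9.

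The DNA around the run divided the members too. Within 300 bp centered on the run, leaving out the run itself, the median GC content was 63.7% (58.9% to 67.7%), with a range from 35% to 82.1%. In the G-quadruplex class it was 50.9% (50.4% to 51.4%) and in the CA repeat class 44.6% (44.0% to 45.3%). Members with a mixed run lay in DNA of 69.1% GC (67.7% to 72.0%), those with a CGG/CCG repeat in 52.1% (47.0% to 57.5%) and those with a stretch of 1 base in 48.8% (45.7% to 54.7%). The 47 members with over 70% GC around the run had a median fold enrichment of 4.15 (3.9 to 4.55), and 36 of them had a mixed run. The 32 with at most 50% had 5.02 (4.33 to 5.47), and 11 of them had a CGG/CCG repeat and 11 a stretch of 1 base. The Spearman correlation of fold enrichment with surrounding GC content over the 141 members was −0.32 (Pearson −0.33), and with run length 0.26 (Pearson 0.29). The local background, over which the fold enrichment is taken, had a median of 4.02 (3.70 to 4.40) reads in the members with over 70% GC around the run and 3.54 (3.18 to 3.94) in those with at most 50%, and the reads at the summit had medians of 20 (19 to 23) and 20.5 (18 to 26). The part of the background in these correlations was not tested.

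**Figure D2:**
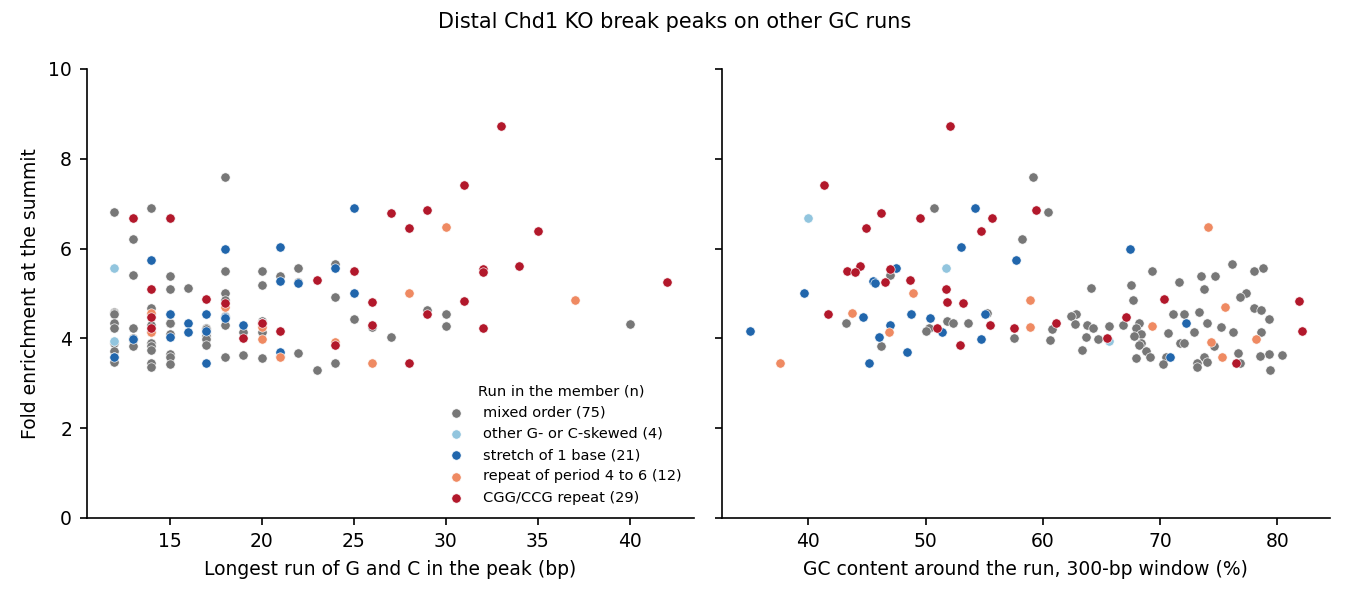
Fold enrichment of the 141 members against the length of the longest run of G and C (left, bp) and the GC content around it (right, %), colored by the kind of run. The CGG/CCG repeats, in red, fill the upper right of the left panel, with 13 of the 20 runs of 28 bp or more, and the mixed runs, in gray, crowd above 60% GC in the right panel.

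Many members had the base composition of CpG islands although no annotated TSS lay within 1 kb. Over the peak interval the median GC content was 67.0% (60.9% to 71.0%), with an observed over expected ratio of CG of 0.72 (0.62 to 0.80). A GC content of at least 50% with a ratio of at least 0.6 was met by 81 members (57.4%, 49.2% to 65.3%). That share was not counted for other peaks. Over all Chd1 KO peaks, however, the lower quartiles were 58.4% GC and a ratio of 0.68. Both lie above these limits, so such a composition was not particular to members. The medians were 74.3% GC and a ratio of 0.89 over all Chd1 KO peaks, and 53.5% and 0.54 over the 1892 distal ones. Members had to hold a run of G and C, so their GC content was in part set by the rule. The G-quadruplex class had 56.0% GC and a ratio of 0.38 (0.37 to 0.39), below the members by intervals that do not overlap. The ratio was not higher in members than in the CA repeat class, at 0.78 (0.76 to 0.80), or the alternating C-G class, at 0.79 (0.73 to 0.89). Peaks within 1 kb of a TSS had 76.6% GC and a ratio of 0.94. Members lay a median of 15.8 kb from the nearest TSS (10.3 to 21.3 kb). The 47 in the most GC-rich surroundings lay nearer, at 8.04 kb (4.15 to 14.7 kb), than the 62 with at most 60% GC around the run, at 25.6 kb (20.0 to 34.9 kb). Only 13 members lay between 1 and 2 kb from a TSS, and 24 were over 50 kb away. All 141 were on autosomes, where they made up 7.54% (6.43% to 8.83%) of the distal peaks, against 7.45% on all chromosomes. Chromosomes 1 and 8 held 15 each, and other distal peaks were not counted by chromosome. The next Chd1 KO peak lay within 10 kb of 14 members and within 2 kb of 5.

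To ask how often such sequence lay under a break peak, all runs of the same kind were found in the mm9 genome. There were 44113 distal runs of at least 12 bp, outside coding exons, with none of the 3 excluded patterns in the 300 bp around them. A member lay over the centre of 245, or 0.555%, and 133 of the 141 members held at least 1. Runs in the same member were counted separately. The intervals of the shares of runs are therefore too narrow where a member held several. No such run lay under a control peak. Runs of at least 20 bp numbered 505, and 61 lay under a member (12.1%, 9.52% to 15.2%), far above the 0.555% of all these runs. The share was higher for longer runs. Of runs of 12 to 15 bp, 0.334% (0.282% to 0.395%) lay under a member, and of runs of 16 to 19 bp 1.36% (1.04% to 1.79%) did. The share was 8.81% (6.54% to 11.8%) for runs of 20 to 27 bp, and it reached 41.2% (28.8% to 54.8%, 21 of 51) for longer ones. No interval overlaps the next. Among the 448 long runs whose neighboring 50-base sequences each occur once in the genome the share was 12.7%. Whether reads over the run itself could be placed was not tested.

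The share of short runs under a member rose with the GC content around them, and that of the longest runs had no such order. Of the runs of 12 to 15 bp, 14.9% (12.1% to 18.3%, 77 of 516) lay under a member where over 70% of the surrounding bases were G or C. Where 40% to 50% were, the share was 0.0600% (0.0343% to 0.105%, 12 of 19997). Of the runs of 20 to 27 bp the shares were 23.2% (14.8% to 34.4%) and 4.76% (2.33% to 9.5%). Runs of 28 bp or more lay under a member in 7 of 15 cases in the first setting (46.7%, 24.8% to 69.9%) and in 8 of 11 in the second (72.7%, 43.4% to 90.3%), with intervals that overlap. Between these settings it was 5 of 12 at 50% to 60% GC and 1 of 13 at 60% to 70% (7.69%, 1.37% to 33.3%), and the last interval lies below that of the 8 of 11. Under any Chd1 KO peak, however, lay 5 of the 13 (38.5%, 17.7% to 64.5%) and 8 of the 11, with intervals that overlap. Of the 133 runs of 12 to 15 bp under a member, 77 thus came from 516 of the 39867 such runs in the genome. These runs often shared a peak, and the intervals treat them as independent. With over 70% GC around them, 129 runs of any length lay under a member, while 47 members had their longest run in that setting. In the most GC-rich setting 30.5% of runs lay under any Chd1 KO peak against 16.7% under a member, since the interval of those other peaks held an excluded pattern elsewhere, or the summit did not count as distal.

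Long runs were also compared by kind. Of runs of at least 20 bp with at most 60% GC around them, a CGG/CCG repeat lay under a member in 16 of 53 (30.2%, 19.5% to 43.5%), a stretch of 1 base in 7 of 155 (4.52%, 2.2% to 9.03%) and a mixed run in 2 of 47 (4.26%, 1.17% to 14.2%). The interval of the CGG/CCG repeats overlaps neither of the others, but these groups differed in length. Of the 16 CGG/CCG repeats under a member 11 came from the 16 such repeats of 28 bp or more, a length reached by 1 stretch of 1 base and 2 mixed runs. At 20 to 27 bp the shares were 5 of 37 for CGG/CCG repeats (13.5%, 5.91% to 28%), 7 of 154 for stretches of 1 base (4.55%, 2.22% to 9.08%) and 2 of 45 for mixed runs (4.44%, 1.23% to 14.8%), with intervals that overlap. Kind and length of the run can thus be told apart only in part. With any GC content around them, runs of 20 to 27 bp lay under a member in 13.6% (7.03% to 24.5%) of CGG/CCG repeats and 13.4% (8.74% to 20.0%) of mixed runs. At 28 bp or more these shares were 58.3% (38.8% to 75.5%) and 25.0% (10.2% to 49.5%). Under any Chd1 KO peak they were 62.5% (42.7% to 78.8%) and 56.2% (33.2% to 76.9%), and the intervals overlap in both pairs. The next shares are again for runs of at least 20 bp with at most 60% GC around them. Under any Chd1 KO peak lay 30.2% of the CGG/CCG repeats, 5.16% of the stretches of 1 base and 4.26% of the mixed runs. A repeat of period 4 to 6 lay under a member in 4 of 46 (8.70%, 3.43% to 20.3%), whose interval overlaps that of the CGG/CCG repeats. With these runs held to at least 2 CG dinucleotides the shares were 30.2% for CGG/CCG repeats, 4.80% (6 of 125) for stretches of 1 base and 4.26% for mixed runs. With looser G-quadruplex motifs, of gaps to 12 bases, left out instead, the shares were 31.9% (15 of 47), 4.46% and 2.94%. Over all surroundings, longer perfect repeats lay under a member more often. The share was 5.56% (3.50% to 8.72%, 17 of 306) at 12 to 17 bp, 12.5% (6.47% to 22.8%) at 18 to 23 bp, 40% (19.8% to 64.3%, 6 of 15) at 24 to 29 bp and 75% (40.9% to 92.9%, 6 of 8) from 30 bp on.

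**Figure D3:**
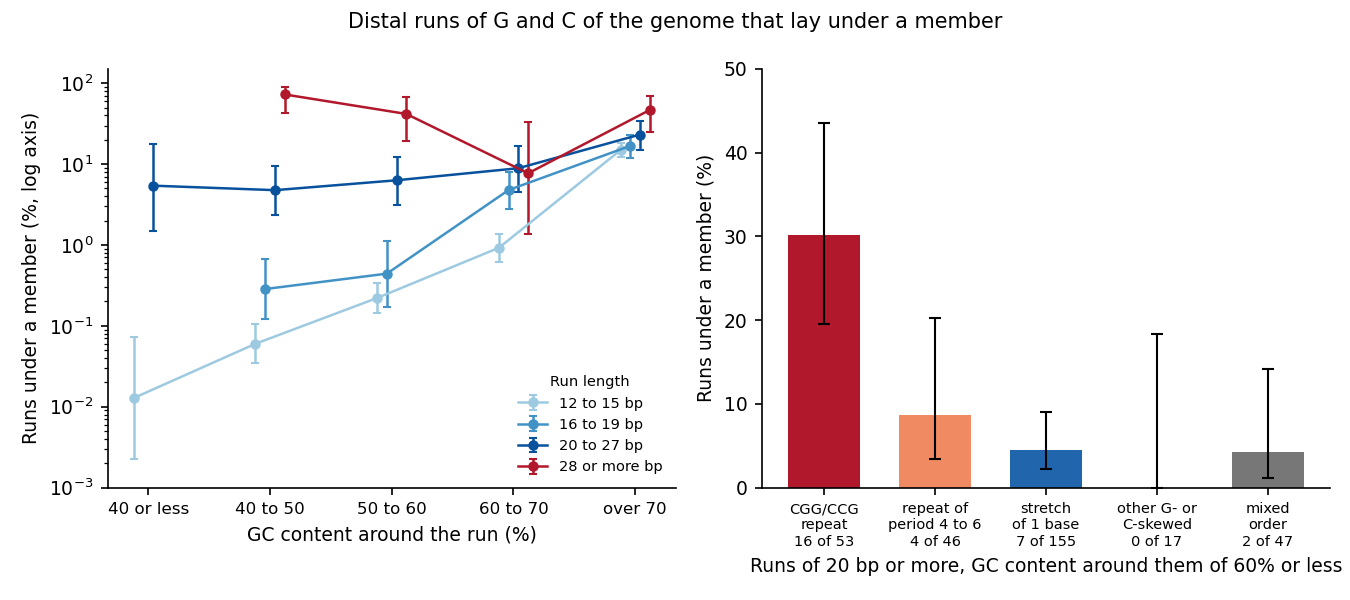
Share of distal genomic runs of G and C that lay under a member, with Wilson 95% intervals: left, by the GC content around the run (%, log axis, one line per run length, cells with 0 runs under a member not drawn); right, for runs of at least 20 bp with at most 60% GC around them, by kind of run. Short runs reach 14.9% at over 70% GC from 0.0600% at 40% to 50%, and the CGG/CCG repeats stand at 30.2% against 4.52% for stretches of 1 base, with 11 of their 16 runs under a member at 28 bp or more, a length reached by 1 stretch of 1 base. Runs in the same peak are counted separately, so intervals are too narrow where a peak held several.

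Runs without CG dinucleotides were almost absent from members. Of the 16083 such runs in the genome 1 lay under a member (0.00622%, 0.00110% to 0.0352%), whereas 9.09% (7.30% to 11.3%) of those with 5 or more did. The difference was also seen at a fixed length and surrounding GC content. Of runs of 12 to 15 bp with 40% to 50% GC around them, 0 of 9290 without CG lay under a member, which allows up to 0.0323%, against 3 of 278 with 4 CG (1.08%, 0.368% to 3.12%). With 5 or more CG in that setting it was 0 of 105, which allows up to 2.86%. In surroundings over 70% GC the shares at different numbers of CG had overlapping intervals, with 9.35% (5.16% to 16.4%) at 2 CG and 13.1% (8.75% to 19.2%) at 4.

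The summits of members favored neither side of the run when the whole peak was searched. In 136 members the run held unequal numbers of G and C, so that a G-rich strand could be named. Along that strand the summit lay 0.5 bp from the middle of the run at the median (−10.5 to 11.5 bp), with 68 summits on the 3′ side. Where only the 100 bp on either side of the summit were searched for runs and patterns, which changes the members too, the median was 11.5 bp toward the 3′ side (1.5 to 19 bp), an interval without 0. In the G-quadruplex class the summit lay 15.5 bp toward the 3′ side of the G-rich strand (11.5 to 19.5 bp, n = 986), and the intervals meet at 11.5 bp without overlapping further. Without regard to side, the median distance was 44 bp (32.5 to 54.5 bp), 113 of 141 summits were within 100 bp, and in 22 the run held the summit. In the 49 intronic members with such a strand, the gene's own strand was the G-rich one in 26 (53.1%, 39.4% to 66.3%).

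**Figure D4:**
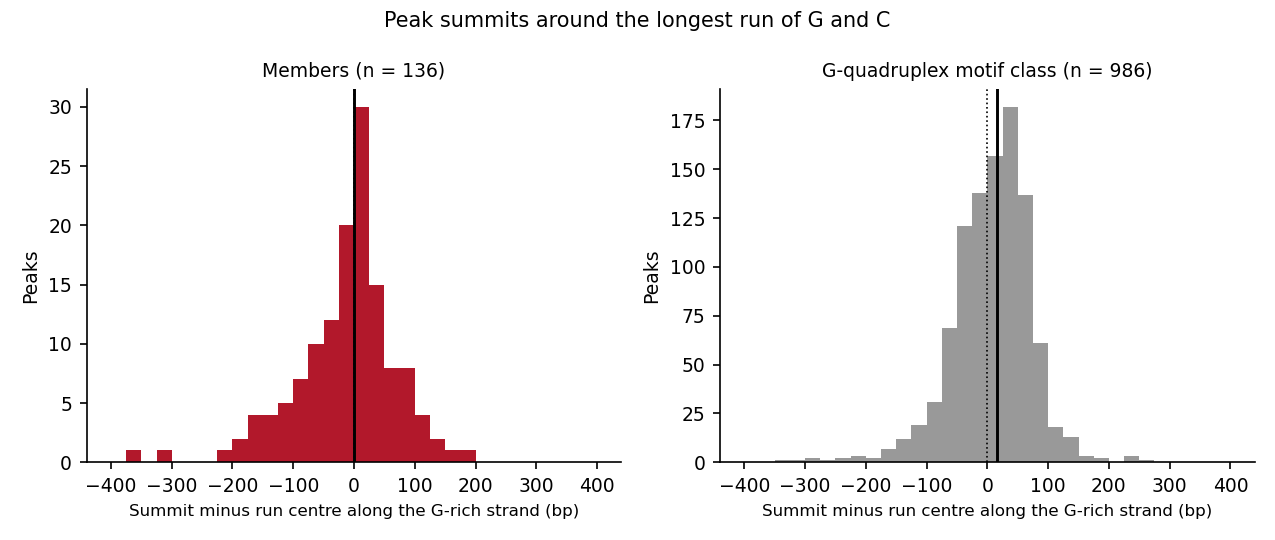
Number of peaks by the distance of the summit from the middle of the longest run (bp, positive toward the 3′ side of the G-rich strand, bins of 25 bp) for members and for distal peaks with a G-quadruplex motif. The solid line is the median, 0.5 bp in members and 15.5 bp in the other class, and the dotted line is 0.

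By the place of the summit, 50 members were intronic (35.5%, 28% to 43.6%), 83 intergenic (58.9%, 50.6% to 66.6%) and 8 in noncoding exons. The intronic share was 45.7% (42.8% to 48.7%) in the G-quadruplex class, an interval that overlaps that of the members. The 50 genes that held an intronic member, each holding 1, often had a break peak at their own start. A summit lay within 1 kb of a TSS of the gene in 19 of them (38.0%, 25.9% to 51.8%), against 10.6% of all 37273 annotated genes. The share was 31.2% (27.2% to 35.5%) in genes holding an intronic peak of the G-quadruplex class and 30.2% (24.6% to 36.5%) in those holding a CA repeat peak, so it was not particular to members. The hosts were long, with a median of 68.1 kb against 5.38 kb for all genes. Hosts of the other distal classes had higher medians, from 87.4 kb without a run to 113 kb with a CA repeat. Long hosts were thus not particular to members. Among protein-coding genes of 38.4 to 150 kb, the middle range of the hosts, 9 of 21 hosts (42.9%, 24.5% to 63.5%) and 1288 of 4363 genes without a distal intronic peak (29.5%, 28.2% to 30.9%) had a TSS peak, with intervals that overlap. With the window cut to 1 kb upstream and 100 bp downstream of the TSS it was 11 of 50 (22.0%, 12.8% to 35.2%), against 6.99% of all genes, and with peaks of at least 4-fold enrichment 8 of 37 (21.6%, 11.4% to 37.2%), against 8.51%. Of the named hosts, Ankrd44 had a TSS peak, with a fold enrichment of 3.40 and 16 reads, weaker than its intronic member. Tgfbr2, Cacna1g, 1700121C08Rik, 4930505N22Rik and Gm16629 had none.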

How the data were processed

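Members and lists were chosen with earlier results of these data known. DSB-seq libraries (2 per genotype) were mapped by the authors to mm9 with Bowtie2, filtered, and combined by genotype. MACS2 then called peaks (q-value up to 0.05), of which blacklisted ones were dropped. The deposited lists give for each peak the fold enrichment (a ratio of reads to local background), −log10 p-values and q-values, a display score and the offset of the summit from the start. No input or unlabeled DSB-seq library is among the samples. Recovery of DNA that differs with GC content therefore could not be told apart from breaks. Extended reads (200 bp) and background were recovered from the fold and the p-value (largest error in −log10 p of 0.000135), a step tested on simulated data, where it returned the reads of all 4757 peaks. Sequence came from NCBIM37 (mm9), and TSSs, genes and exons from GENCODE M1. Named members were the 10 of highest fold enrichment and the 5 with the longest run, called by the gene holding the summit or by the nearest TSS, and a host holding several members would have been named. Of these, 1 member is not reported here. Shares have Wilson intervals and medians order-statistic intervals, both of 95%. With 1 list per genotype no test was made. Reads, signal along the genome and ChIP-seq were not analyzed here. Python 3.11.15, NumPy 2.4.6, SciPy 1.17.1, pandas 2.3.3, Matplotlib 3.10.9, pysam 0.24.0 and samtools 1.23.1 were used.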

Additional observations from a re-analysis of the deposited data

How the results depend on the processing

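The 10 main values were recomputed under 18 alternatives, which gave 121 values, of which 111 did not leave the interval of the main value or, for the count of members, change by over 1.5 times. With G-quadruplex gaps of up to 12 bases there were 85 members, or 4.49% of the distal peaks. Runs of at least 15 bp gave 5.39%, and searching 100 bp on either side of the summit 9.67%. With peaks of at least 4-fold enrichment the median fold enrichment was 4.60, the median number of reads 21.5 and the share of host genes with a TSS peak 21.6%. That share was 22.0% with the shorter TSS window. The run nearest to the summit had a median length of 15 bp. Genomic runs from 12 bp on lay under a member in 0.555%. The restriction to runs with unique 50-base neighbors was chosen after seeing the data and left the share of long runs within its interval, at 12.7%. No paired analysis was possible because the deposited peak lists used here combine the replicates of each genotype, and for the same reason no replicate could be left out. Reads of single replicates were not analyzed here. The summit offset, with an interval around 0 in the other alternatives, was 11.5 bp (1.5 to 19 bp) with the search around the summit. The weakest summit called in Chd1 KO had 13 reads, and replicate spread, signal below the threshold and mapping within repeats limit these values. The causes of these differences were not tested.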

Other observations

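The 56 members that held the looser G-quadruplex motif (gaps of up to 12 bases) had a median fold enrichment of 4.27 (4.01 to 4.35), and the 85 without it 4.54 (4.30 to 4.82), with intervals that overlap. Of the 29 members with a CGG/CCG repeat 4 held the looser motif, and of the 75 with a mixed run 38 did.

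Members often held more than 1 run. At least 2 runs of 12 bp or more lay in 63 of the 141 peaks and at most 8 in any, and in the 47 with over 70% GC around the longest run 34 had several. A pair of members upstream of Gm10566, with fold enrichments of 5.09 and 3.9, lay 0.396 kb apart.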
